A study of Mus musculus with 16 samples.

Results

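The EMT transcription factors Zeb1, Zeb2, Snai1, Snai2, Twist1, Twist2 and Tcf4 were followed across 16 mouse lung tumors, as every probe set of the array annotated to 1 of these symbols and to no other gene. This gave 13 probe sets of the 22626 tested, for 7 genes of the 12393 with a single-symbol probe set. Tcf4 had 6 probe sets, Zeb1 had 2, and each of the other genes had 1. In the comparison of 9 metastases with the primary tumors of the same mice, none of the 13 probe sets passed the adjusted threshold, where 0.354% of all probe sets did. In a test of the mouse of origin that was chosen after the values had been seen, Zeb2 and 2 of the 6 Tcf4 probe sets passed, where 5.09% of all did, and this count of 3 fell to 0 without mouse 1, without mouse 3 or without 1 metastasis of mouse 3. Of 23 measured epithelial genes that these factors are known to repress, 4 were lower in the metastases after adjustment. The fitted difference was negative for all 23. But the 4 calls were lost without mouse 1, 2 or 4, without any 1 of 3 metastases, or with 1 mean ratio per mouse. Calls over all probe sets fell too, from 80 to 2, 19 and 10 without mouse 1, 2 or 4. Against all 7 primary tumors, 9 of the 23 were lower after adjustment, where 1.24% of all probe sets passed.

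The samples were 7 primary lung adenocarcinomas, 1 from each of mice 1 to 7, and 9 metastases from mice 1 to 4, with 1 array per tumor. All carried the genotype p53R172H∆g/+ K-rasLA1/+, which joins a mutant p53 allele with a latent oncogenic K-ras allele that becomes active by sporadic recombination, so no tumor lacked either allele and normal lung was not part of the comparison. Mouse 6 was female and the other mice were male, and the ages of the animals were not given in the sources used here. The metastases were inguinal, hepatic and subcutaneous or body wall in mouse 1, hepatic in mouse 2, cardiac, mediastinal nodal and subcutaneous in mouse 3, and mediastinal nodal and pleural in mouse 4. These sites are those of the sample labels, whereas the published sample list places both non-hepatic metastases of mouse 1 in the body wall. Tumors were dissected free of adjacent tissue but not sorted, so a lower value of a gene may mean fewer cells that express it or less RNA in each, and these cannot be told apart. Alveolar type 2 markers (8 genes), which mark the cells that such adenocarcinomas resemble, had summed intensities of 17123 to 46475 in the primary tumors. In the metastases the sums were 1133 to 28061, and they were lowest in those of mouse 3, at 1133 to 2511. Several metastases of 1 mouse were separate tumors of 1 animal, and p-values measure the spread between these tumors.

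Epithelial-mesenchymal transition is a program in which epithelial cells lose junctions and polarity and gain motility. The zinc finger proteins Zeb1, Zeb2, Snai1 and Snai2 bind E-box sequences and repress epithelial genes such as E-cadherin (Cdh1), and the basic helix-loop-helix proteins Twist1 and Twist2 act on the same program, in part as dimers with E proteins. Tcf4 (E2-2) is such an E protein and should not be mistaken for Tcf7l2, a Wnt pathway factor that has shared its name.

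The E-box bound by Zeb and Snail proteins reads CACCTG, or CAGGTG on the opposite strand. To show what these letters look like in the genes at issue, the 250 bases before the RefSeq start (build GRCm38.p6) are printed 5′ to 3′ along the gene's strand, with each E-box in capitals. Snai1 (chr2:167537945-167538194, plus strand) is shown because it was the 1 member of 4 with a promoter in the RefSeq table that held an E-box. Rab25 (chr3:88548280-88548529, minus strand), Epcam (chr17:87635729-87635978, plus strand), Crb3 (chr17:57061951-57062200, plus strand) and Ap1m2 (chr9:21312334-21312583, minus strand) are epithelial genes whose windows held 2, 2, 3 and 4 E-boxes.
Snai1: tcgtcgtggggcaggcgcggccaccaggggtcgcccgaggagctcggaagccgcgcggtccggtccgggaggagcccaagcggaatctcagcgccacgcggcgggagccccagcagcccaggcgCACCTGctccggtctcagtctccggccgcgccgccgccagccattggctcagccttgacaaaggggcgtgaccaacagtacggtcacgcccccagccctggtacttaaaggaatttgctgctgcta
Rab25: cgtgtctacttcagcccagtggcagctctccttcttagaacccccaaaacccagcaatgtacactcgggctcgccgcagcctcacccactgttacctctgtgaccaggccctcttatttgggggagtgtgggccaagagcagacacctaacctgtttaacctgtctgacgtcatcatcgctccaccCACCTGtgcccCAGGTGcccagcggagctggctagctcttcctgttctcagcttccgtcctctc
Epcam: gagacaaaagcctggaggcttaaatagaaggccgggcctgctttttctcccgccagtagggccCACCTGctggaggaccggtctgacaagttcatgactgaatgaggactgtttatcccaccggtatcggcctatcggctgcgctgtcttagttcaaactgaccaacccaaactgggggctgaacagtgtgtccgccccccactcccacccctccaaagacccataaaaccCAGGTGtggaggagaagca
Crb3: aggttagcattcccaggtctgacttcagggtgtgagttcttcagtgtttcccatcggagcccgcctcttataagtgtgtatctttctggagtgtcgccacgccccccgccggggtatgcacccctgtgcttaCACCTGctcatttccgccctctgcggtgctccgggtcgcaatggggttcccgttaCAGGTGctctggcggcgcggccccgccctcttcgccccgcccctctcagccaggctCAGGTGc
Ap1m2: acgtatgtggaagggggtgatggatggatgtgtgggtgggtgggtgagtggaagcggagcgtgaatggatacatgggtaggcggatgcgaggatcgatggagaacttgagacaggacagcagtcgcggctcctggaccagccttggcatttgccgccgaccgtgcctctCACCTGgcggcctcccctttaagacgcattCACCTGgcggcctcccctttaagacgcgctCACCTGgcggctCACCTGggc
The 4 matches of Ap1m2 began 81, 51, 21 and 9 bases before the start, and the single match of Snai1 began 126 bases before it. Of all 27025 genes in the table, 19.4% held an E-box in these 250 bases. Among the epithelial genes listed as targets, 12 of the 16 with a promoter in the table held one, and Cldn3, Dsp, Jup and Tjp1 did not. These genes were listed as known targets of E-box binding repressors, so their share is not an independent result. Other lists gave 3 of 5 for lymphocyte markers, 2 of 5 for alveolar type 2 markers, 2 of 6 for epithelial regulators and 0 of 7 for mesenchymal genes. A match is a description of letters and not a binding site.

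Levels were read against the 25th percentile of all values, an intensity of 24.3 that is called the detection line here. Present call rates in the study were lower than the share of values above this line. A value above it need not be a present call. Of the 13 probe sets, 7 were above it in all 16 tumors, 5 in some tumors and 1 in none. Zeb1 (1418926_at), Snai1, Twist2 and 4 Tcf4 probe sets were above in all 16. Another Tcf4 probe set (1416723_at) was above in 15 tumors, Zeb2 in 11, Twist1 in 8, Snai2 in 5 and the second Zeb1 probe set (1420243_at) in 4. Tcf4 1416725_at was above it in 0 of 16 tumors. By tumor, from 7 of the 13 probe sets in the mouse 2 liver metastasis to 12 in the mouse 3 lymph node metastasis were above the line.

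**Figure D1:**
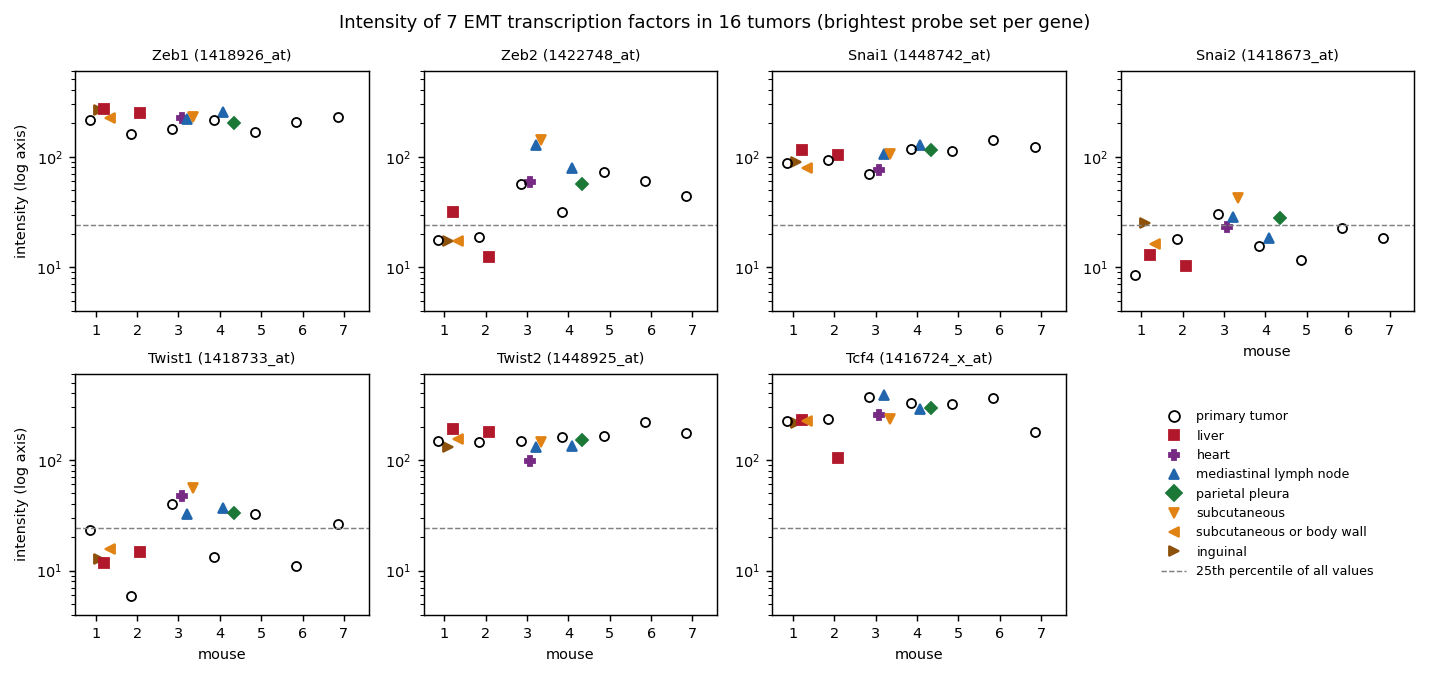
Intensity (log axis) of the brightest probe set of each EMT transcription factor in every tumor, by mouse; open circles are primary tumors, filled symbols are metastases by site, and the dashed line is the 25th percentile of all values (24.3). Zeb2 and Twist1 lie higher in the mouse 3 tumors than in the tumors of mice 1 and 2, while Snai1 and Twist2 stay above the line in all 16 tumors.

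Zeb1, a zinc finger repressor of E-cadherin and of the miR-200 family, had the lowest adjusted p of the 7 probe sets above the detection line in all 16 tumors. In mouse 1 its intensity (1418926_at) was 214 in the primary tumor against 266, 267 and 222 in the inguinal, liver and subcutaneous or body wall metastases. In mouse 2 it was 161 against 249 in the liver metastasis. In mouse 3 it was 179 against 222, 218 and 230 in the heart, lymph node and subcutaneous metastases, and in mouse 4 it was 215 against 255 in the lymph node and 201 in the pleural metastasis. Zeb1 was thus higher than in the matched primary tumor in 8 of 9 metastases, the pleural nodule of mouse 4 being the exception. The mean was 192 ± 26.8 (SD, n = 4) in the matched primary tumors and 237 ± 23.4 (SD, n = 9) in the metastases. The log2 difference was 0.29 (SE 0.12, 95% interval 0.03 to 0.55), which did not pass after adjustment over all probe sets (limma, adjusted p = 0.369). The 3 unmatched primary tumors had intensities of 168, 207 and 231, so the highest primary tumors overlapped the metastases. Over all 16 tumors the difference was 0.28 (interval 0.07 to 0.48, limma adjusted p = 0.220). The dim Zeb1 probe set 1420243_at lay between 13.2 and 33.0 and overlapped throughout, with a log2 difference of 0.35 (interval -0.20 to 0.90, limma adjusted p = 0.653).

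Zeb2, the paralog of Zeb1, differed between mice more than between tissues. In mouse 1 its intensity was 17.6 in the primary tumor and 17.2, 31.6 and 17.2 in the inguinal, liver and subcutaneous or body wall metastases, and in mouse 2 it was 18.9 in the primary tumor and 12.4 in the liver metastasis. In mouse 3 it was 56.6 in the primary tumor and 59.6, 129 and 141 in the heart, lymph node and subcutaneous metastases, and in mouse 4 it was 31.7 in the primary tumor against 79.4 in the nodal and 57.0 in the pleural metastasis. Every tumor of mice 3 and 4 lay above every tumor of mice 1 and 2, by as little as 31.7 against 31.6 at the closest. The primaries of mice 5 to 7 had 72.5, 60.2 and 43.7. The 5 tumors under the 25th percentile were all from mice 1 and 2, so their values give no exact fold. Zeb2 was higher in 6 of 9 metastases, with a log2 difference of 0.47 (SE 0.32, interval -0.23 to 1.18, limma adjusted p = 0.637) against matched primary tumors and 0.24 (limma adjusted p = 0.879) over all 16 tumors. The latter turned to -0.19 without mouse 3 and to -0.0093 without mouse 4.

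Snai1 and Snai2, the Snail and Slug repressors, did not pass in either comparison. Snai1 ranged from 70.4 to 143 with a median of 114 in the 7 primary tumors, and from 76.0 to 126 with a median of 105 in the 9 metastases, so the groups overlapped throughout. It was higher in 7 of 9 metastases than in the matched primary tumor, with a log2 difference of 0.18 (interval -0.13 to 0.50, limma adjusted p = 0.696). Over all 16 tumors the Snai1 difference was 0.01 (interval -0.29 to 0.31, limma adjusted p = 0.988). Its highest levels were in the mouse 6 (143) and mouse 7 (122) primaries and in the mouse 4 lymph node metastasis (126). Snai2 lay near the detection line, from 8.46 to 30.3 in the primary tumors and from 10.3 to 42.0 in the metastases. It was above its primary tumor in all 3 metastases of mouse 1 and both of mouse 4, in 1 of the 3 of mouse 3 and not in that of mouse 2. The Snai2 log2 difference was 0.28 (interval -0.38 to 0.93, limma adjusted p = 0.790), and it was -0.02 without mouse 1.

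Twist1, a regulator of mesoderm and of cranial mesenchyme, lay near the detection line, with metastases on both sides of their primary tumors. In mouse 1 the primary tumor had 23.5 and the inguinal, liver and subcutaneous or body wall metastases had 12.6, 11.6 and 15.8, while in mouse 2 the values were 5.86 in the primary tumor and 14.8 in the liver metastasis. In mouse 4 the primary tumor had 13.4 against 36.8 in the nodal and 33.1 in the pleural metastasis. In mouse 3 the primary tumor had 39.9, the heart and subcutaneous metastases 47.4 and 55.8 and the lymph node metastasis 32.2. All tumors of mice 1 and 2 and the mouse 4 primary tumor were under the 25th percentile, and whether the ratios of metastasis over primary tumor differ between mice was not tested. The fitted difference was 0.40 (interval -0.33 to 1.13, limma adjusted p = 0.707), with 5 of 9 metastases higher. Twist2, its paralog and likewise a helix-loop-helix factor, was 144 to 221 in the primary tumors and 97.7 to 188 in the metastases, with medians of 160 and 146. Its log2 difference was -0.03 (interval -0.37 to 0.30, limma adjusted p = 0.959), but the sign was not stable, since it became 0.02 after quantile normalization.

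Tcf4, the E protein E2-2, was measured by 6 probe sets that did not all point one way. The brightest (1416724_x_at) was 225 in the mouse 1 primary tumor and 214 to 231 in its 3 metastases, 232 in mouse 2 against 103 in the liver metastasis, and 329 in mouse 4 against 289 and 294. In mouse 3 it was 369 against 257 in the heart, 387 in the lymph node and 235 in the subcutaneous metastasis. This probe set was lower in 7 of 9 metastases, with a log2 difference of -0.37 (interval -0.78 to 0.04, limma adjusted p = 0.49). Tcf4 1434149_at was lower in 8 of 9 metastases, with means of 136 ± 4.69 (SD, n = 4) and 112 ± 24.1 (SD, n = 9) and a log2 difference of -0.38 (SE 0.17, interval -0.76 to -0.00, limma adjusted p = 0.436). The mouse 2 liver metastasis held the lowest value of 5 of the 6 Tcf4 probe sets, for instance 34.7 on 1434148_at against 96.9 in its primary tumor. Without that metastasis the difference on 1434148_at went from -0.27 (interval -0.85 to 0.31, limma adjusted p = 0.764) to 0.01, that on 1434149_at from -0.38 to -0.17 and that on 1416724_x_at from -0.37 to -0.19. The differences on 1424089_a_at and 1416723_at were -0.24 (interval -0.60 to 0.11) and 0.14 (interval -0.60 to 0.88), with limma adjusted p of 0.63 and 0.92. Tcf4 1416725_at gave 0.92 (interval 0.14 to 1.70, limma adjusted p = 0.345), but its intensities of 1.66 to 16.3 were under the 25th percentile in every tumor. The 5 brighter Tcf4 probe sets tracked each other over the 16 tumors, with Pearson correlations of 0.66 to 0.88, whereas 1416725_at correlated with them between -0.03 and 0.27. These probe sets share arrays and a gene, and no test was made of these correlations.

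**Figure D2:**
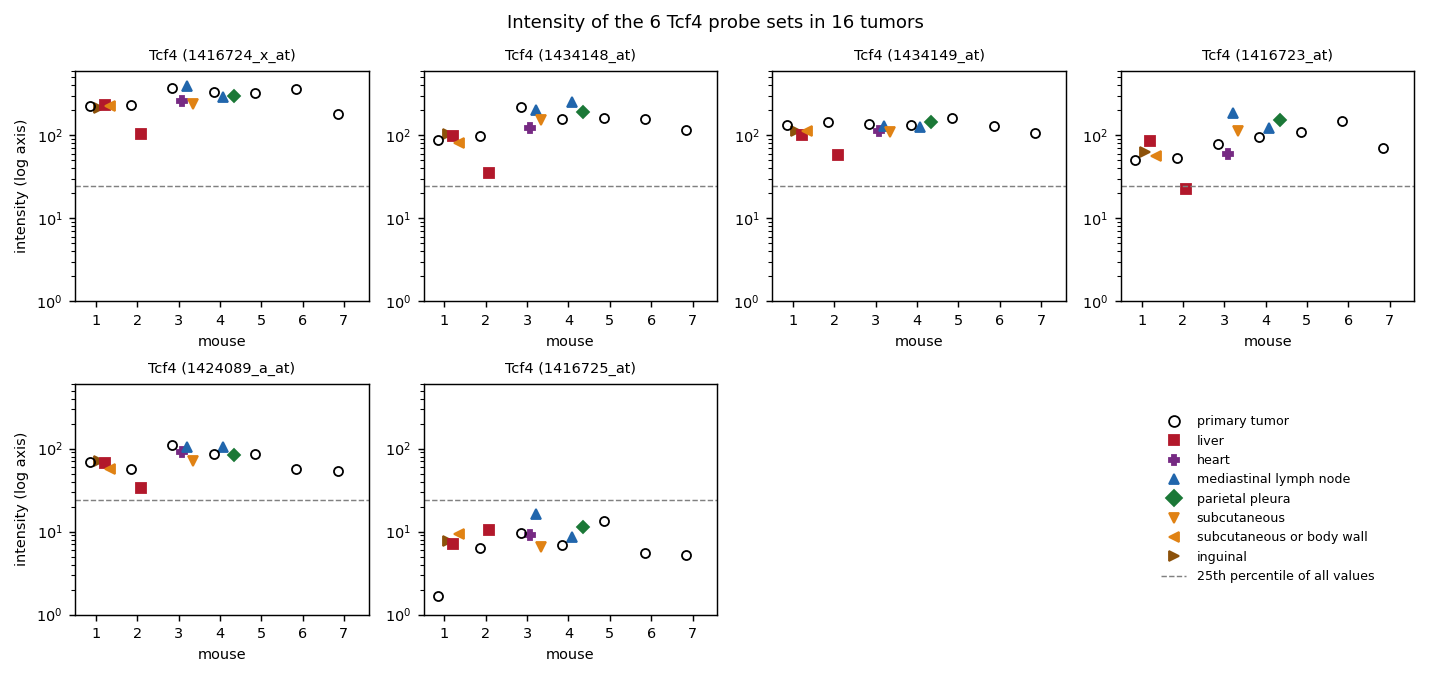
Intensity (log axis) of the 6 Tcf4 probe sets in every tumor, by mouse; open circles are primary tumors, filled symbols are metastases by site, and the dashed line is the 25th percentile of all values. The mouse 2 liver metastasis is the lowest point of the 5 brighter probe sets, and all points of 1416725_at lie under the line.

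Counted together, 0 of 13 probe sets passed an adjusted p of 0.05 in the matched comparison, where 0.354% of all probe sets did (limma). Before adjustment, at p under 0.05, 2 were higher (Zeb1 1418926_at and Tcf4 1416725_at) and 1 was lower (Tcf4 1434149_at), beside 11.4% of all probe sets. Over all 16 tumors 0 of 13 passed after adjustment, beside 1.24% of all, and the unadjusted counts were again 2 higher and 1 lower, beside 12.4% of all. With 1 mean ratio per mouse the matched unadjusted count was 0 of 13. The median log2 difference of the 13 probe sets was 0.18 in the matched comparison and 0.02 over all 16 tumors, beside -0.02 and 0.01 over all probe sets. The number past the adjusted threshold stayed at 0 in each alternative run.

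**Figure D3:**
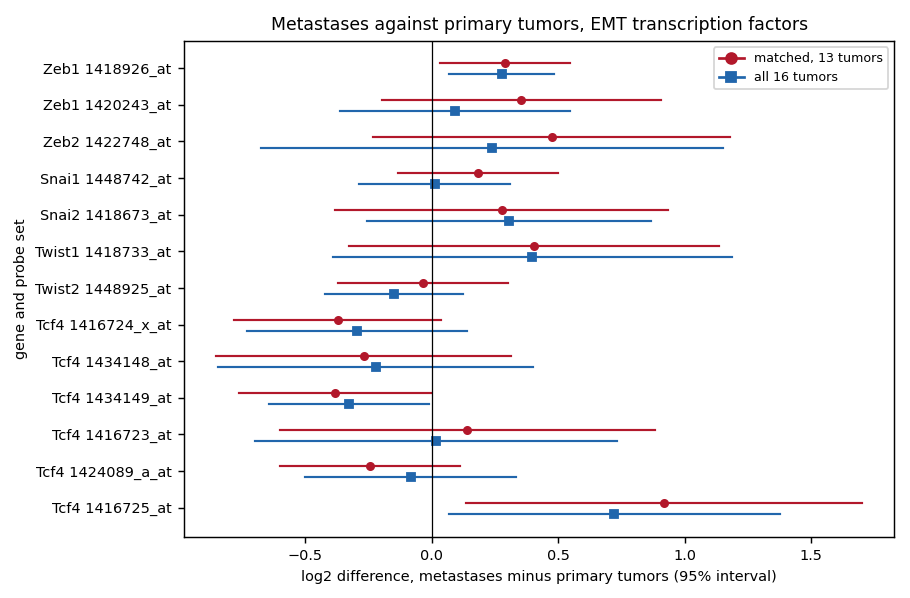
Log2 difference of metastases minus primary tumors for the 13 probe sets, with 95% intervals from limma, in the matched comparison (13 tumors, circles) and over all 16 tumors (squares). Intervals of both comparisons exclude 0 before adjustment for Zeb1 1418926_at, Tcf4 1434149_at and the dim Tcf4 1416725_at, and 0 of the 13 passed after adjustment.

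The mouse of origin separated some members more clearly than the tissue. In the F test of the mouse term in the 13 matched tumors, a test chosen after the values had been seen, 3 of 13 probe sets passed after adjustment, where 5.09% of all probe sets did. These were Zeb2 (limma adjusted p = 0.018), Tcf4 1424089_a_at (0.044) and Tcf4 1434148_at (0.049). Before adjustment 7 of 13 were under 0.05, with Snai2, Twist1 and 2 more Tcf4 probe sets added, where 22.6% of all did. For Tcf4 1434148_at the tumors lay at 79.6 to 103 in mouse 1, 34.7 and 96.9 in mouse 2, 121 to 216 in mouse 3 and 155 to 250 in mouse 4, so those of mice 3 and 4 lay above those of mice 1 and 2. Of the Zeb2 sum of squares, 81.0% lay between mice and 3.63% between tissues, whereas for Zeb1 1418926_at the shares were 22.2% and 41.0%. The mouse was entered before the tissue and has more degrees of freedom, so the 2 shares of a gene are not like quantities. The calls rested on few tumors. The count was 0 without mouse 1, without mouse 3 or without the mouse 3 subcutaneous metastasis, 2 without mouse 2, and 1 without mouse 4 or without any 1 of the other metastases of mice 1, 3 and 4. Over all probe sets the mouse term called 5 without mouse 3.

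Cell type markers varied between these tumors too, with ranges that partly overlapped between mice, and they were not tested by mouse as lists. Summed over 11 macrophage markers, of which none was at the floor of 1 in any tumor, intensity was 6592 to 9960 in the 4 tumors of mouse 3, 4920 to 5440 in mouse 4, 3215 to 4537 in mouse 1, and 6535 and 2600 in the primary tumor and liver metastasis of mouse 2. In the primary tumors of mice 5 to 7, where Zeb2 was 43.7 to 72.5, it was 5861 to 7986. A mean of the same markers' log2 values, each centred over the 16 tumors, placed these primary tumors differently. This mean was -0.26, -0.40 and -0.41 in mice 5 to 7 and -0.44 to -0.21 in the tumors of mouse 1. In mouse 3 it was 0.42 to 0.91, and in mouse 4 it was 0.03 to 0.15. The primary tumor and liver metastasis of mouse 2 had -0.02 and -0.71. Zeb2 is also expressed by macrophages, and Csf1r, the macrophage growth factor receptor, was among the 5 genes most like Zeb2 in pattern (Pearson r = 0.927 over 16 tumors). Fibroblast markers summed to 6308 to 19319 in mouse 3 and to 3548 to 6304 in mouse 4, against 2557 to 9036 in mouse 1 and 2856 and 4337 in the primary tumor and liver metastasis of mouse 2. The part of either cell type in the levels of Zeb2, Twist1 or Tcf4 was not tested.

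Genes whose pattern was most like that of a member were ranked by Pearson correlation of log2 values over the 16 tumors among 10187 genes, as a description with shared arrays. For Zeb2 they were Grn (0.948), Rap2b (0.938), Sf3b1 (0.937), Ube2r2 (0.928) and Csf1r, and for Zeb1 they were Zfp553 (0.83), Pask (0.812), Igdcc4 (0.809), Tial1 (0.807) and Paf1 (0.792). Snai1 was most like Usb1 (0.913), Gatc (0.854), Elavl4 (0.839), Slc46a3 (0.836) and Crnkl1 (0.820). Twist1 was most like Dusp18 (0.885), Col20a1 (0.879), Txnrd3 (0.840), Tcap (0.836) and Igf2bp1 (0.822). For Twist2 the list was Tmprss13 (0.828), Olfr67 (0.822), Inhbe (0.811), Lect2 (0.782) and Pdcd2l (0.781), and for Tcf4 it was Tmem234 (0.843), Arf1 (0.838), Brox (0.811), Ccnd1 (0.791) and Arih2 (0.788). Snai2 was above the detection line in too few tumors to be ranked.

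Genes that act with or upstream of the members had no call in the matched comparison. Of 12 other EMT transcription factors 0 passed after adjustment, with 6 higher and 6 lower and a median log2 difference of 0.01. Sox9, a factor of progenitor and cartilage cells, had the largest of them at 0.93 (SE 0.20, limma adjusted p = 0.106) and was higher in 9 of 9 metastases, with Prrx1 at 0.27 and Foxq1 at -0.30. Of 6 E proteins and Id inhibitors, the dimer partners of Twist proteins and their antagonists, 0 passed (median -0.05), with Tcf3 at 0.63 (limma adjusted p = 0.415), Id1 at -0.30 and Id2 at -0.45. Of 14 co-repressors and chromatin partners 0 passed (median 0.06), and the Polycomb methyltransferase Ezh2 was at 0.85 (limma adjusted p = 0.271) and higher in 9 of 9, with Rcor1 at 0.65 and Limd1 at -0.49. Of 10 regulators of Snail protein stability 0 passed (median 0.04), with Btrc at 0.28, Csnk1a1 at 0.18 and Ctdsp1 at -0.22. Of 12 genes of TGF-beta signalling, a known inducer of the members, 0 passed (median 0.00), and the receptors Tgfbr1 and Tgfbr2 were at -0.52 and -0.44 (limma adjusted p = 0.390 and 0.349) and Smad2 at 0.27.

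Part of the known targets of the members were lower in the metastases. Of 23 epithelial genes that these factors are known to repress, 4 fell after adjustment, beside 0.354% of all probe sets called, and 0 rose. All 23 had a negative difference, with a median of -0.90. The 4 were the claudin Cldn3 (-1.14, limma adjusted p = 0.024), the small GTPase Rab25 (-1.42, 0.031) and the membrane serine proteases St14 (-1.69, 0.024) and Prss8 (-1.92, 0.038). Each of these 4, and 12 of the 23 in all, was lower in 9 of 9 metastases. Over all 16 tumors 9 of the 23 fell after adjustment, beside 1.24% of all probe sets called, and 0 rose. The matched call count was 0 with 1 mean ratio per mouse, 0 without mouse 1, 2 or 4 and 1 without mouse 3. With single metastases left out it was 0 to 5. It was 0 without the mouse 1 subcutaneous or body wall, the mouse 2 liver or the mouse 4 lymph node metastasis. Over all probe sets, the 80 matched calls fell to 2, 19, 23 and 10 without mouse 1, 2, 3 or 4. They fell to 11, 19 and 9 without those metastases, in the order given. Cdh1 itself, named here as the best known target, was at -0.72 (SE 0.41, limma adjusted p = 0.564) and lower in 7 of 9. Of 13 genes listed as epithelial regulators that oppose the program, 0 passed in the matched comparison. Over all 16 tumors 6 of the 13 were lower, beside 1.24% of all probe sets called. This list also holds Spint1 and, shared with the list above, Cdh1. Its matched median was -0.67, with a positive difference for 2 of the 13. It includes the splicing factor Esrp1 (-3.67, limma adjusted p = 0.079) and the Ets factors Ehf (-2.43, 0.108) and Elf5 (-2.20, 0.134). Epcam, whose promoter is printed above, was at -2.38 (limma adjusted p = 0.131), Ap1m2 at -1.04 (0.219) and Crb3 at -0.29 (0.666). Muc1 and Cldn7 were at -2.76 (0.082) and -1.66 (0.172).

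Mesenchymal genes and fibroblast markers had positive medians and no call in the matched comparison. The difference was positive for 10 and negative for 4 mesenchymal genes, and positive for 9 and negative for 2 fibroblast markers. Of 14 mesenchymal genes 0 passed (median 0.27), with the filament protein vimentin (Vim) at 0.98 (limma adjusted p = 0.242) the matrix protein Tnc at 0.78 (0.252) and the lectin Lgals1 at 1.30 (0.189). Of 11 fibroblast markers, among them Lum (1.49, limma adjusted p = 0.319), Col3a1 (1.07, 0.197) and Thy1 (1.08, 0.154), 0 passed (median 0.85), 4 were higher in 9 of 9 metastases, and their summed intensity was 1633 to 6308 in the primary tumors and 2762 to 19319 in the metastases. Over all 16 tumors Lgals1 (limma adjusted p = 0.047) and Thy1 (0.048) passed, beside 1.24% of all probe sets. The matched median was -0.25 for 11 endothelial markers (Pecam1 at -0.50, Cldn5 at -0.47, Vwf at -4.61). For 11 macrophage markers it was 0.13 (Cd68 at -0.80, Lyz2 at -1.09, Csf1r at 0.46). It was 0.11 for 9 lymphocyte, -0.24 for 6 dendritic cell, 0.48 for 7 muscle and nerve sheath and -2.16 for 8 alveolar type 2 markers. Each of these lists had 0 calls in the matched comparison. Over all 16 tumors 1 endothelial, 1 dendritic cell and 2 alveolar type 2 markers were called lower, and 0 higher. Zeb1 and Twist1 are also expressed by fibroblasts, and the part of fibroblast content in the small Zeb1 difference was not tested.

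**Figure D4:**
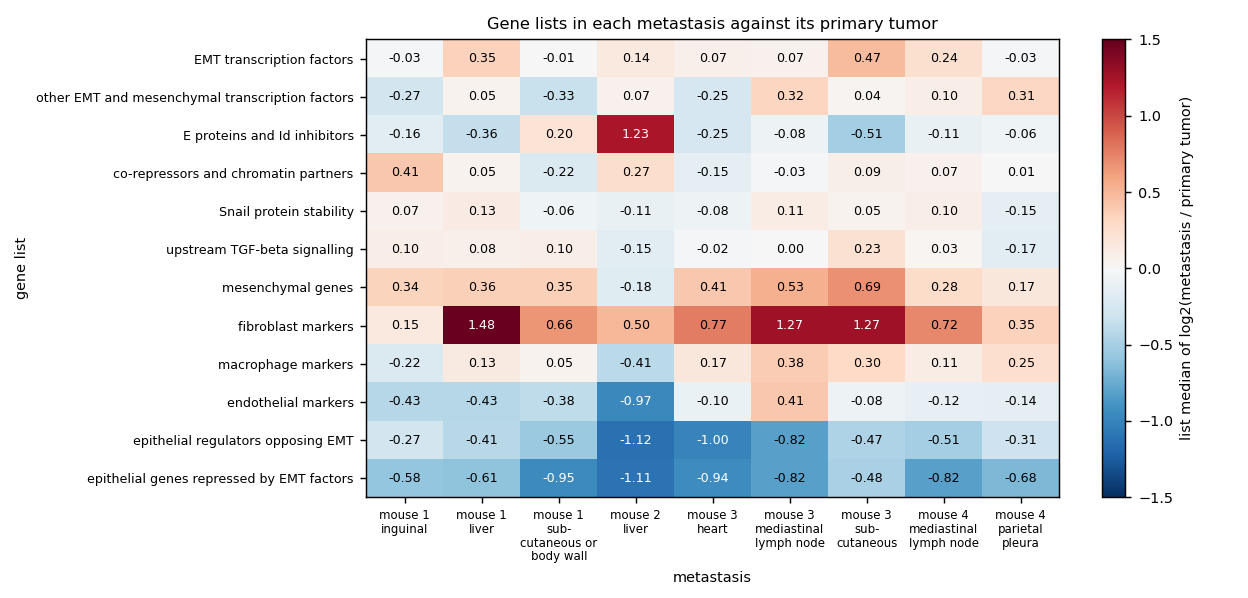
Median log2 ratio of each metastasis over its matched primary tumor for 12 gene lists (rows) in 9 metastases (columns), with the value printed in each cell and colour from blue (lower) to red (higher). The epithelial genes repressed by EMT factors are below 0 in all 9 metastases (-1.11 to -0.48), while the EMT transcription factors, with each gene at its brightest probe set, lie between -0.03 and 0.47.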

How the data were processed

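The authors hybridized RNA of each tumor to 1 Affymetrix 430A 2.0 array and computed expression values in dChip with the perfect match minus mismatch model, normalized to an invariant set. The deposited values are intensity on a linear scale, with array medians of 75.0 to 85.5. The number of arrays limits the precision. From 22690 rows, 64 controls were left out. Intensities under 1 (3.71% were at or under it) were raised to 1 and log2 values taken.

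In limma 3.58.1 (R 4.3.3), the 9 metastases and 4 matched primary tumors were fitted with mouse as a block, and all 16 tumors with mouse as a random block (consensus correlation 0.238). P-values were adjusted by Benjamini-Hochberg over 22626 probe sets. That tumors are paired comes from the study, where those with 1 number share a mouse. Deviations of a metastasis correlated with those of its own primary tumor at -0.00 to 0.40, the highest for 6 of 9. A listed gene was taken at its brightest probe set.

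Every member probe set was named, and of each list the genes past the threshold plus up to 3 of largest difference with a mean above the 25th percentile. For each member above the 25th percentile in at least 8 tumors, the 5 genes of highest correlation were named. Cdh1, Crb3 and Ap1m2 were named outside this rule, and lymphocyte, dendritic, muscle and alveolar lists are given by median. The members and lists were chosen with earlier results of these data known. Alternatives were other floors, a filter on dim probe sets, quantile normalization, centring, a variance trend, fits without the block, 1 mean ratio per mouse, the methods' test and tumors left out. The fits were tested on simulated data.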

Additional observations from a re-analysis of the deposited data

Results flagged for a closer look

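Of 26 sets of values examined (13 probe sets, 7 primary tumors or 9 metastases each), 3 held a tumor far from the others of its group by Dixon's criterion, where chance gives about 5%, or 1 in 20. Twist2 was 220.6 in the mouse 6 primary tumor, and the next primary tumor had 175.8. Tcf4 1434149_at was 57.9 in the mouse 2 liver metastasis, and the next metastasis had 100.6. Tcf4 1416725_at was 16.3 in the mouse 3 mediastinal lymph node metastasis, and the next had 11.5, all of these under the 25th percentile of all values.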

How the results depend on the processing

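Of 577 differences of member probe sets under the alternatives, 0 passed the adjusted threshold and 34 changed sign, all of them in differences that were not called. The count of member probe sets called against primary tumors was 0 throughout. In the methods' t-test, which treats metastases of 1 mouse as independent, Zeb1 1418926_at alone among members passed the study's threshold of 0.01, where 9.79% of all probe sets did, and 0 members passed after adjustment (Zeb1 0.0678). The count of member probe sets that differed between mice was 3, for the genes Zeb2 and Tcf4. It became 1 with the floor at the 25th percentile or after quantile normalization, and 5 without dim probe sets or with a variance trend. It was 0 to 2 when mice or tumors were left out. Over all probe sets, the 80 called in the matched comparison became 236 without dim probe sets, 224 with the trend and 2 without mouse 1.

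Signs changed as follows. Zeb1 1420243_at over 16 tumors was -0.011 with the floor at the 25th percentile. Twist2 in the matched comparison was 0.023 after quantile normalization and 7.29e-04 after centring. When tumors were left out, matched differences ran from -0.024 to 0.53 for Snai2, -0.53 to 0.012 for Tcf4 1434148_at and -0.11 to 0.052 for Twist2. Over all 16 tumors they ran from -0.17 to 0.31 for Tcf4 1416723_at, -0.46 to 0.050 for 1434148_at, -0.15 to 0.067 for 1424089_a_at, -0.030 to 0.17 for Zeb1 1420243_at, -0.19 to 0.52 for Zeb2 and -0.063 to 0.067 for Snai1. The cause was not tested.

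Without the mouse as a block, the paired count of members called stayed at 0, and the 16-tumor differences of Zeb1 1420243_at and Snai1 became -0.0058 and -0.053. Of the 23 epithelial genes, 4 fell with the block and 2 without it, 8 without dim probe sets, 7 with the trend and 0 with 1 mean ratio per mouse. Depth is not defined for arrays, and probe sets near or under the 25th percentile (Snai2, Twist1, Zeb1 1420243_at, Tcf4 1416725_at) carry little signal over background.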
